A study of Mus musculus with 12 samples.

Results

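The genes described here are the 33 genes of cholesterol and fatty acid synthesis that sterol regulatory element-binding proteins (SREBPs) control, among the 28689 genes measured by RNA-seq in mouse lung endothelial cells (MLECs). They were chosen by name for their place in the pathway, with earlier results of these data known. Of these, 5 encode the regulators, 19 encode enzymes of cholesterol synthesis and a sterol carrier (the sterol members), and 9 encode enzymes of fatty acid synthesis and desaturation (the fatty acid members). RNA was sequenced from 6 CTR and 6 dKO libraries. All mice carried floxed alleles of both Sp1 and Sp3 (Sp1 fl/fl and Sp3 fl/fl), and all received tamoxifen. The dKO mice also carried VE-CAD-CreERT2, a tamoxifen-inducible Cre under the VE-cadherin promoter, which is active in endothelial cells, whereas their CTR littermates lacked the Cre, so the Cre itself differed between the groups as well. The cells were selected from digested lung with CD31 beads and, after growing to confluence, with beads against intercellular adhesion molecule 2, and were used at early passage. The study's reporting summary gives all animals as male and aged 6 to 8 weeks. Its main text gives older ages for some experiments and only adult mice as the source of MLECs, with no age for single libraries. The number of mice behind a library was not given, so the p-values measure the spread between these libraries, which may be partly technical.

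SREBPs are transcription factors held in the membrane of the endoplasmic reticulum by Scap and the Insig proteins while sterols are plentiful. When sterols fall, Scap carries the SREBP to the Golgi, where proteases release the part that enters the nucleus and binds sterol regulatory elements. SREBP-2, encoded by Srebf2, mainly drives cholesterol synthesis, and SREBP-1, encoded by Srebf1, mainly drives fatty acid synthesis. SREBPs activate promoters weakly by themselves and act together with Sp1 or NF-Y bound close by, at GC boxes and CCAAT boxes. Endothelial cells both make cholesterol and take it up from lipoproteins, and membrane cholesterol shapes their caveolae.

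The targeted genes were read first, as a check of the labels. Sp1 was between 19.4 and 23.7 FPKM (fragments per kilobase of gene, relative to the library's depth) in CTR and between 8.42 and 12.1 FPKM in dKO, with no overlap, while Sp3 was between 24.2 and 31.1 FPKM in CTR and between 22.5 and 26.9 FPKM in dKO and did not pass the test (adjusted p = 0.0902 from limma). These values cover whole genes, so the deleted exons were not read apart. Libraries held between 15523054 and 17938286 fragments, dKO replicate 1 the fewest. The cells were mixed by their markers. All 10 endothelial markers were higher in dKO and summed to between 207 and 327 FPKM in CTR and between 386 and 528 FPKM in dKO. Of 10 macrophage markers, 9 were higher and Marco was lower in dKO, and they summed to between 916 and 1488 FPKM in CTR and between 2725 and 6347 FPKM in dKO. Of 6 tested fibroblast markers, the 3 collagens were lower in dKO, Dcn was higher (log2 fold change 1.33, adjusted p = 0.00033 from limma, without overlap), and Pdgfra and Tcf21 were not called. With Lum, the fibroblast markers summed to between 2126 and 2697 FPKM in CTR and between 829 and 1657 FPKM in dKO, most of it from the collagens. Of 6 mesothelial markers, 5 were higher in dKO (4 without CTR replicate 1), led by Upk1b at a log2 fold change of 2.48, and they summed to between 28.8 and 38.6 FPKM in CTR and between 66.3 and 146 FPKM in dKO. Higher in dKO were also 2 of 6 mural markers (33.3%), both tested leukocyte markers and 1 of 7 lung epithelial markers (14.3%). Of 6 proliferation markers, 5 were lower in dKO, and 3 without CTR replicate 1. Over all genes tested, limma called 20.4% higher and 32.6% lower in dKO at an adjusted p under 0.05 (19.6% and 31.4% without CTR replicate 1). The 3 adipocyte and 5 retina markers in the table stayed under 1 FPKM in every library; retina is the tissue that the label's extraction text mentions. Fewer cells of a type and less RNA per cell cannot be told apart in such bulk libraries. The part that the mixture of cells plays in the results below was not tested.

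Promoters of the members are shown because SREBPs, Sp factors and NF-Y meet there. RefSeq promoter sequences (mouse GRCm38.p6 table) were found for 26 of the 33 members and placed in GRCm39 by exact match. In windows from 250 bases before to 50 bases after the start, on both strands and counting overlapping matches, the GC box GGGCGG was present in 20 of 26 members (76.9%), against 66.3% of the genes tested and 36% of all genes with a promoter. The CCAAT box was present in 20 of 26 members (76.9%), against 38.6% of the genes tested and 37.9% of all genes. The sterol regulatory element was searched as a single string, TCACNCCAC, so variants of it were not counted. It was present in 1 of 26 members (3.85%), Hmgcs1, against 1.03% of the genes tested and 1.22% of all genes. In a window from 500 bases before to 100 after the start it was present in 3 of 26 (11.5%), against 2.28% of the genes tested. Such matches are letters in a window and not shown to be sites. Scap, Acss2 and Acly, all counted with a GC box, were read from RefSeq starts far inside the annotated gene. These lie 4127 bases inside for Scap, 4284 for Acss2 and further still for Acly. The RefSeq starts of Fasn, Tm7sf2, Nsdhl and Fads2 also lie more than 250 bases inside, so their upstream windows fall wholly within the gene. All of these but Fasn were counted with a GC box. The 250 bases before the start are printed 5′ to 3′ with GRCm39 positions and with these motifs in capitals, for Srebf2, for the called members with a table entry and the largest changes, and for Hmgcs1, which was chosen after its match was seen.
Srebf2, chr15:82031220-82031469, plus strand: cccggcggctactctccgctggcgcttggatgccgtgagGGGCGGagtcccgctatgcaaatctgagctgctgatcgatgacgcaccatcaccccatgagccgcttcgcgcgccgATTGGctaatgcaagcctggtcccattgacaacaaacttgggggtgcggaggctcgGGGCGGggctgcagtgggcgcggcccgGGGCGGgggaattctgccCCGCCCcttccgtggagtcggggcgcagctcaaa
Insig1, chr5:28276160-28276409, plus strand: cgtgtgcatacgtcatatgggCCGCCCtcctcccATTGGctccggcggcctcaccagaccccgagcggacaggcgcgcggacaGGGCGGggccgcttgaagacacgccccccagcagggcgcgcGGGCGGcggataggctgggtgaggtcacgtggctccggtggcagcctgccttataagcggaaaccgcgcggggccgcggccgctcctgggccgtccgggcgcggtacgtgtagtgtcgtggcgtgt
Dhcr7, chr7:143376654-143376903, plus strand: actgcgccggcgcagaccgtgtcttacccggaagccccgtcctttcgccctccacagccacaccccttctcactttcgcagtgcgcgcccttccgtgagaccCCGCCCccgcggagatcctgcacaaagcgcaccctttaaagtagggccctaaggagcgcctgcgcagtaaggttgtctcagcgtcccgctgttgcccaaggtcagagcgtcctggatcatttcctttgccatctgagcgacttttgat
Mvd, chr8:123170162-123170411, minus strand: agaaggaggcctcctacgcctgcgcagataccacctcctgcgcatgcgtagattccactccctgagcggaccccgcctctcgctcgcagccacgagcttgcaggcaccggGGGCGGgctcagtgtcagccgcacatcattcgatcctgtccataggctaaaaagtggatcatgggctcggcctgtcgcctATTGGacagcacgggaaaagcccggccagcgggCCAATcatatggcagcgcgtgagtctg
Hmgcs1, chr13:120151637-120151886, plus strand: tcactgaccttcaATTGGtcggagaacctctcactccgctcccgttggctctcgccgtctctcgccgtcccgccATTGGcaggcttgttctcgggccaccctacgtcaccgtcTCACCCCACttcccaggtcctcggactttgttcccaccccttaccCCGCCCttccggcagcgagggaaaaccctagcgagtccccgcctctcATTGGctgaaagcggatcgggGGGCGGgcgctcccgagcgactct
Acaca, chr11:84086014-84086263, plus strand: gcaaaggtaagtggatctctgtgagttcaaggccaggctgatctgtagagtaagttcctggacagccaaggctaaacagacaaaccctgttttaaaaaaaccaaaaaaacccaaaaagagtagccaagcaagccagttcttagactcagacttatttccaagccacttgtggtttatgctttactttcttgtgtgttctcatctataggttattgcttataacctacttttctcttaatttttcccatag
In capitals are 4 GC boxes and 1 CCAAT box in Srebf2, 3 GC boxes and 1 CCAAT box in Insig1, 1 GC box in Dhcr7, and 1 GC box and 2 CCAAT boxes in Mvd. Hmgcs1 shows 2 GC boxes, 3 CCAAT boxes and the sterol regulatory element. The Acaca window starts from a RefSeq start that lies 65788 bases inside the annotated gene, and it holds none of the 3 motifs. In Srebf2, Insig1, Dhcr7 and Mvd the GENCODE start lies upstream of the RefSeq start, so the last part of the window is also annotated as exon of the gene.

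Most of the 33 members did not pass the test of dKO against CTR. The comparison asked which genes depend on endothelial Sp1 and Sp3. Of the 33 members, 32 passed the filter (at least 1 FPKM in at least 6 of the 12 libraries) and 8 (25%) were called by limma at an adjusted p under 0.05, against 53.1% of the 12467 genes tested. Called higher in dKO were 5 members (15.6%), against a background of 20.4%, and these were Insig1, Stard4, Dhcr7, Mvd and Tm7sf2. Called lower were 3 members (9.38%), against 32.6%, and these were Fads1, Acaca and Scd1. All 5 that rose belong to the regulators and sterol members, and all 3 that fell belong to the fatty acid members. Within each list these shares were near the background. They were 22.2% of the tested sterol members higher, against 20.4%, and 33.3% of the fatty acid members lower, against 32.6%. The median log2 fold change was 0.30 over 18 tested sterol members and −0.29 over 9 fatty acid members, with estimates above 0 in 14 and in 3 of them, beside −0.10 over all genes tested. The sterol and the fatty acid members were not tested against each other. No member passed an absolute log2 fold change of 1.5 (0 of 32 by limma, against 1.98% of all genes, with 9 members at an unadjusted p under 0.05), and the largest difference was 0.75. In 2 members (6.25%) the groups did not overlap, against 27.4% of the genes tested. Fold changes are differences on the scale of log2(FPKM + 1), on which low genes appear to change less than they did.

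**Figure D1:**
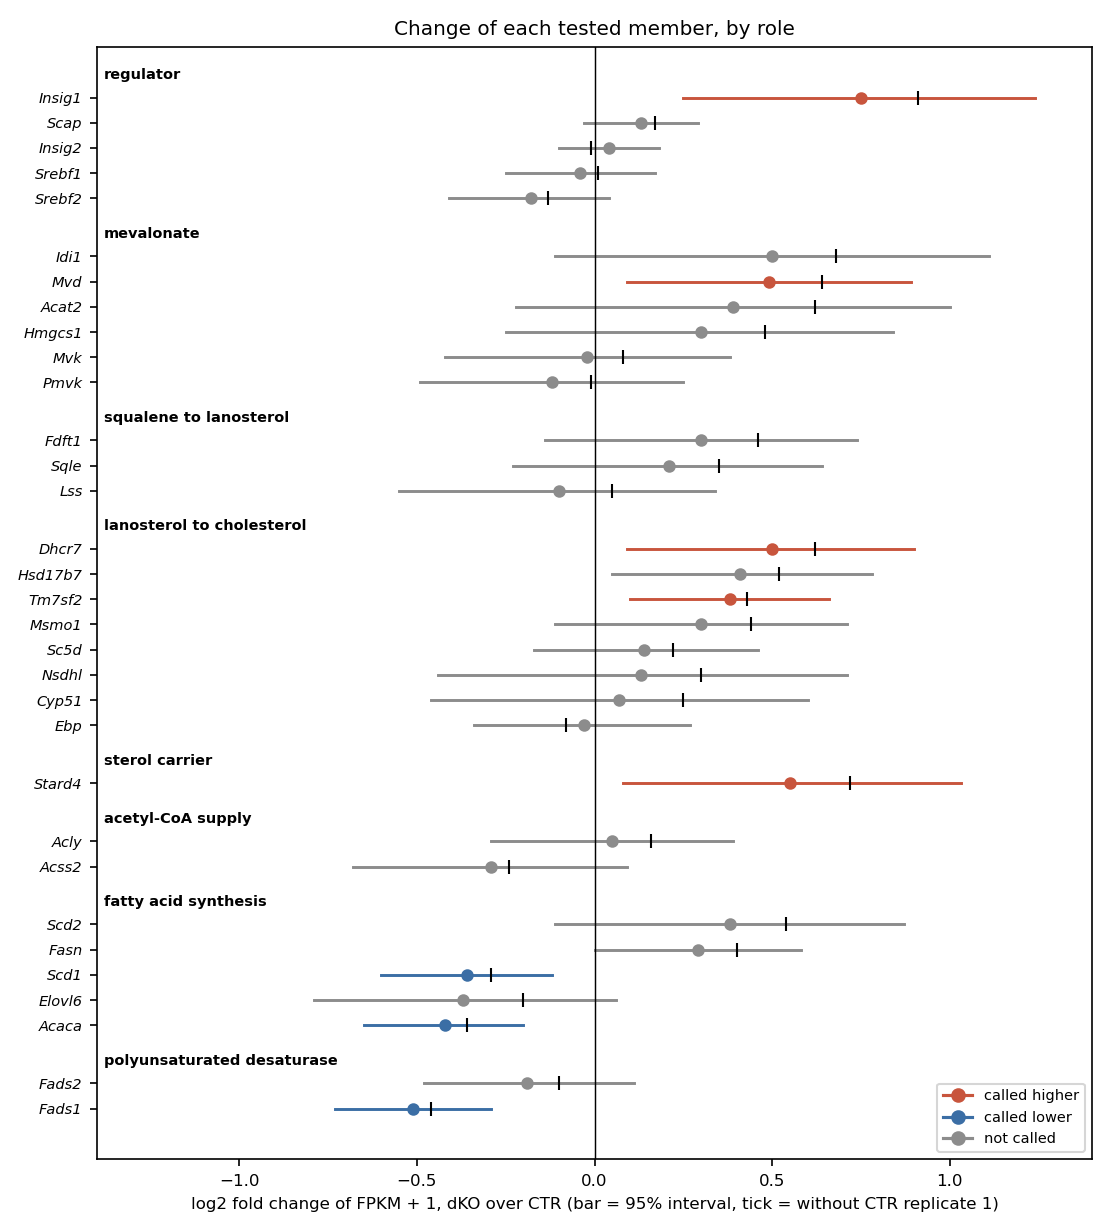
Log2 fold change of FPKM + 1 (dKO over CTR, horizontal axis) of the 32 tested members, grouped by role; points are limma estimates from 6 libraries a group, bars 95% intervals, and black ticks the estimate without CTR replicate 1. Insig1 stands highest at 0.75 and Fads1 lowest at −0.51, and most bars cross 0.

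The regulators were near their CTR level except for Insig1. Srebf1 (ENSMUSG00000020538, chromosome 11) ran from 17.3 to 24.5 FPKM in CTR with a median of 21.3, and from 16.5 to 21.8 FPKM in dKO with a median of 20.9. Srebf2 (ENSMUSG00000022463, chromosome 15) was higher in level, from 45.0 to 65.1 FPKM in CTR (median 52.7) and from 36.0 to 54.2 FPKM in dKO (median 47.9). For both genes the groups overlapped widely, with log2 fold changes of −0.04 (95% interval −0.25 to 0.17, adjusted p = 0.777) and −0.18 (−0.41 to 0.04, adjusted p = 0.151) from limma. FPKM were given per gene, so the SREBP-1a and SREBP-1c transcripts of Srebf1 were not separated. Scap, the escort of SREBPs, ran from 7.28 to 9.46 FPKM in CTR (median 8.26) and from 8.16 to 10.7 FPKM in dKO (median 9.17). Its log2 fold change was 0.13 (−0.03 to 0.29, adjusted p = 0.142 from limma), and it was called higher under 2 other scalings. Insig2, which holds Scap back, was level, from 8.66 to 11.5 FPKM in CTR and from 10.4 to 11.4 FPKM in dKO, with a median of 10.6 in each group (adjusted p = 0.599 from limma).

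Insig1, the other retention protein and itself an SREBP target, rose most of all members. In CTR replicates 1 to 6 it was 53.3, 36.1, 33.1, 32.97, 18.9 and 17.6 FPKM, and in dKO replicates 1 to 6 it was 36.7, 56.4, 56.0, 55.8, 53.0 and 50.2 FPKM. Except for replicate 1 of each group, each dKO library lay well above each CTR library. The gene (ENSMUSG00000045294, chr5:28276315-28283668) had a mean of 32.0 ± 13.1 FPKM in CTR against 51.3 ± 7.58 FPKM in dKO (each with SD, n = 6), a log2 fold change of 0.75 with a standard error of 0.23. The adjusted p from limma was 0.0151 and the exact two-sided permutation p was 0.0108. It was called in all 26 other settings, at adjusted p between 0.0013 and 0.0354.

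**Figure D2:**
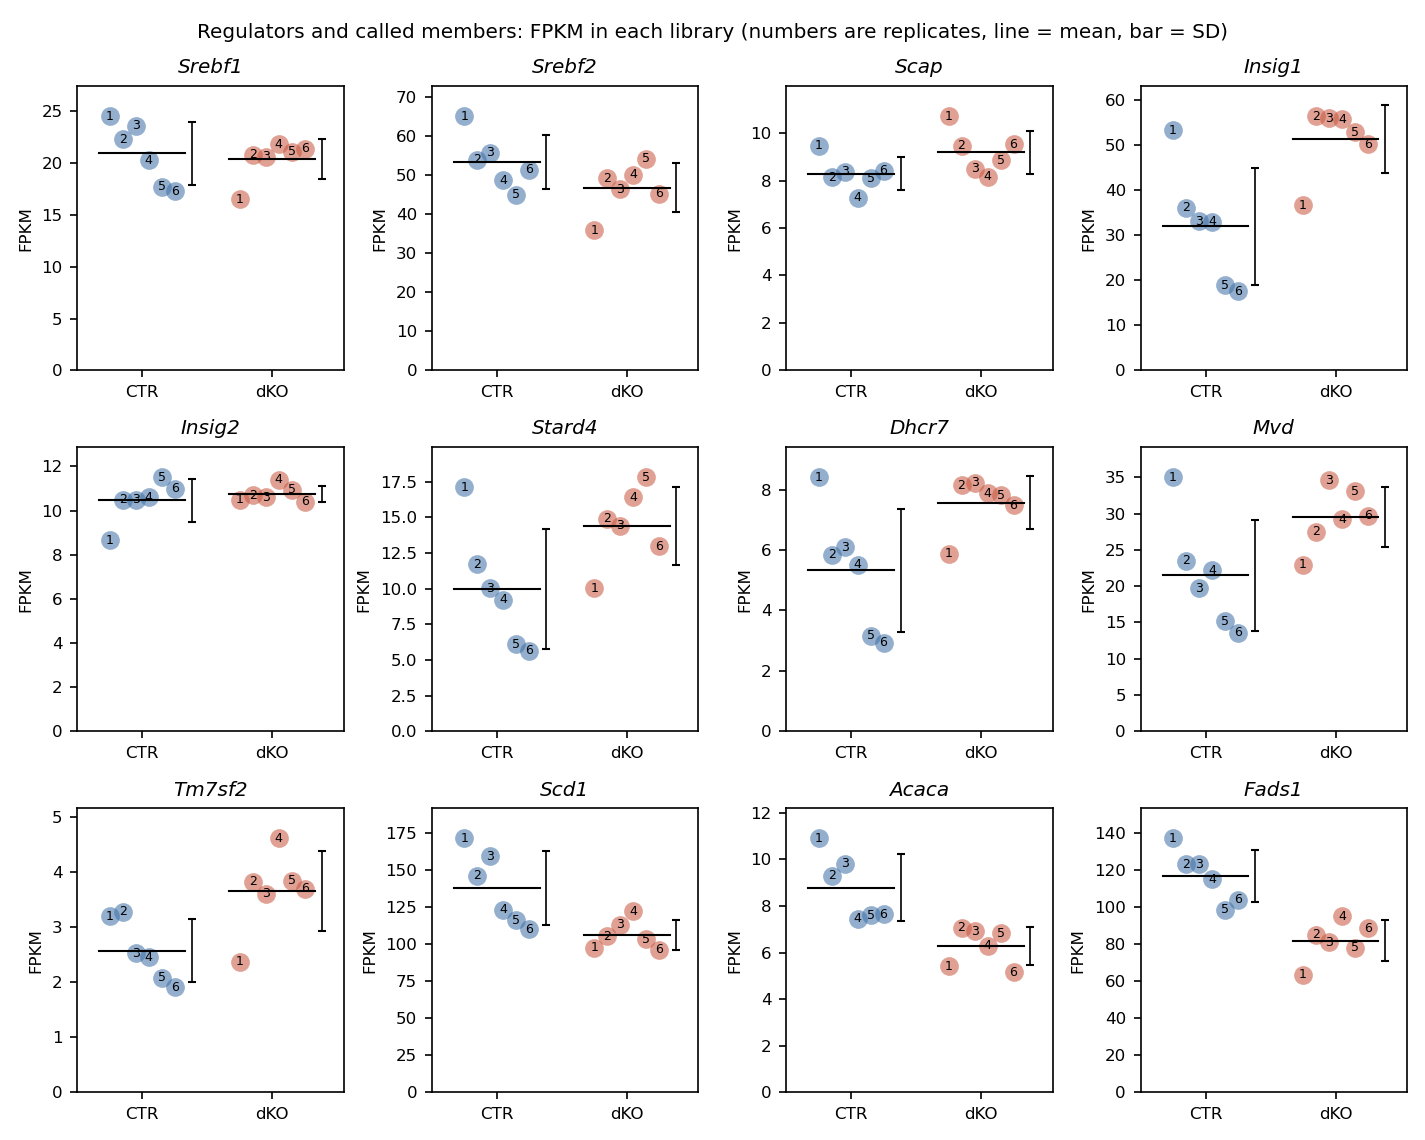
FPKM (vertical axes, starting at 0) of the 5 regulators and the 7 other called members in each CTR and dKO library; numbers in the points are replicates, lines are group means and bars SD (n = 6). CTR replicate 1 lies highest in CTR for 10 of these genes, dKO replicate 1 lowest in dKO for 8 of them, and only Acaca and Fads1 have groups that do not overlap.

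Among the sterol members, 4 of 18 (22.2%) rose and none fell at an adjusted p under 0.05, against 20.4% and 32.6% of all genes, so the share that rose was near the background. Stard4, a carrier that moves cholesterol between membranes (ENSMUSG00000024378, chromosome 18), was between 5.66 and 17.1 FPKM in CTR (median 9.62) and between 10.02 and 17.8 FPKM in dKO (median 14.7). Its log2 fold change was 0.55 with a standard error of 0.22 (adjusted p = 0.0473 from limma, exact permutation p = 0.0498). CTR replicate 1, at 17.1 FPKM, stood above 5 of the 6 dKO libraries. Dhcr7, the reductase of the last step of cholesterol synthesis (ENSMUSG00000058454, chr7:143376740-143402149), was between 2.94 and 8.40 FPKM in CTR (median 5.69) and between 5.88 and 8.23 FPKM in dKO (median 7.84), a log2 fold change of 0.50 with a standard error of 0.19 (adjusted p = 0.0394 from limma). Here, too, the highest value of all belonged to CTR replicate 1. Mvd, the decarboxylase that makes isopentenyl diphosphate (ENSMUSG00000006517, chr8:123160336-123170324), was between 13.6 and 35.0 FPKM in CTR (median 21.0) and between 23.0 and 34.6 FPKM in dKO (median 29.4). Its log2 fold change was 0.49 with a standard error of 0.19 (adjusted p = 0.0404 from limma). Tm7sf2, a sterol reductase (ENSMUSG00000024799, chr19:6112851-6118403), was the lowest tested sterol member, between 1.91 and 3.28 FPKM in CTR (median 2.49) and between 2.37 and 4.61 FPKM in dKO (median 3.76), with a log2 fold change of 0.38 and a standard error of 0.13 (adjusted p = 0.0237 from limma). In 5 of 6 dKO libraries it lay above all CTR libraries, and only dKO replicate 1 did not. Tm7sf2 matches Vps51, which it overlaps on the same strand, over 51% of its transcript, so its fragments are uncertain.

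None of these 4 calls held under every setting. Stard4 lost the call in 12 of the 26 other settings, Mvd in 11 and Dhcr7 in 10, and Tm7sf2 in 4 of the 25 in which it was tested (it did not pass the filter of 5 FPKM), always with the sign unchanged. Among single libraries, leaving out CTR replicate 5 or 6 ended all 4 calls (adjusted p between 0.0519 and 0.104), and leaving out dKO replicate 4 did so as well (between 0.0534 and 0.0863). Leaving out dKO replicate 2, 3, 5 or 6 ended the calls of Stard4, Mvd and Dhcr7, leaving out CTR replicate 3 those of Stard4 and Mvd, and leaving out CTR replicate 4 that of Stard4 (between 0.0556 and 0.0934).

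The other mevalonate enzymes were not called. Median FPKM moved from 15.2 in CTR to 19.5 in dKO for Acat2, the cytosolic thiolase that joins acetyl-CoA units, and from 25.3 to 32.0 for Hmgcs1, which makes HMG-CoA. For Idi1, the isomerase of isopentenyl diphosphate, it moved from 12.6 to 17.3. These 3 genes had log2 fold changes between 0.30 and 0.50 with standard errors between 0.25 and 0.28, and none of their 95% intervals excluded 0. The kinases Mvk and Pmvk were closer to no difference, at −0.02 (95% interval −0.42 to 0.38) and −0.12 (−0.49 to 0.25). Fdps, which makes farnesyl diphosphate, was not tested: it was listed between 0.182 and 1.66 FPKM in CTR and between 0.781 and 1.48 FPKM in dKO. Only 324 fragments in CTR and 478 in dKO were assigned to Fdps, whereas 3 near-identical copies in the table held 919 and 1077. The study's methods describe keeping only uniquely aligned reads, but how the deposited values were counted is not given. The level of Fdps is therefore uncertain. Acat2, Elovl6, Fdft1 and Idi1 also share between 66.0% and 84.3% of a transcript with near-identical copies, which makes their fragments less certain. The measured copies held 81 fragments in CTR and 72 in dKO for Acat2, 14 and 19 for Fdft1, and 105 and 188 for Idi1. The members themselves held 4219 and 5048, 6919 and 8311, and 4654 and 6353. The copy of Elovl6 was not among the genes measured.

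Downstream of farnesyl diphosphate no further member passed the test. Median FPKM was 15.6 in CTR and 19.7 in dKO for Fdft1 (squalene synthase), 14.3 and 17.6 for Sqle (squalene epoxidase), and 6.996 and 7.27 for Lss (lanosterol synthase). From lanosterol onward, Cyp51 (25.3 and 27.5), Msmo1 (18.9 and 23.8), Nsdhl (15.7 and 17.1), Ebp (17.9 and 17.2) and Sc5d (25.4 and 28.8) gave log2 fold changes between −0.03 and 0.30 on adjusted p between 0.193 and 0.855. Hsd17b7, a ketosteroid reductase, came nearest to the threshold, with a median of 6.58 FPKM in CTR and 8.78 FPKM in dKO, a log2 fold change of 0.41 (standard error 0.17) and an adjusted p of 0.0554 from limma. It was called higher in 8 of the 26 other settings.

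The fatty acid members divided. Of the 9, 3 (33.3%) fell and none rose at an adjusted p under 0.05, against 32.6% and 20.4% of all genes. The share that fell was thus near the background. Fads1, the delta-5 desaturase of polyunsaturated fatty acids (ENSMUSG00000010663, chr19:10160167-10174241), was 137, 123, 123, 115, 98.6 and 104 FPKM in CTR replicates 1 to 6 and 63.4, 85.1, 81.0, 95.1, 78.1 and 88.7 FPKM in dKO replicates 1 to 6. No dKO library reached the lowest CTR library. The mean was 117 ± 14.0 FPKM in CTR against 81.9 ± 10.9 FPKM in dKO (each with SD, n = 6), and its log2 fold change was −0.51 with a standard error of 0.10 (adjusted p = 0.00124 from limma, exact permutation p = 0.00216, the smallest that 6 libraries against 6 allow). Acaca, acetyl-CoA carboxylase, which makes the malonyl-CoA that fatty acid synthesis uses (ENSMUSG00000020532, chr11:84020476-84292477), was 10.9, 9.31, 9.81, 7.46, 7.61 and 7.65 FPKM in CTR and 5.41, 7.06, 6.91, 6.30, 6.84 and 5.15 FPKM in dKO. Again there was no overlap. Its log2 fold change was −0.42 with a standard error of 0.10 (adjusted p = 0.00454 from limma, exact permutation p = 0.00216). Scd1, the stearoyl-CoA desaturase (ENSMUSG00000037071, chr19:44382894-44399154), was between 110 and 171 FPKM in CTR (median 134) and between 96.0 and 122 FPKM in dKO (median 104), a log2 fold change of −0.36 with a standard error of 0.11 (adjusted p = 0.0164 from limma). The groups of Scd1 overlapped in part. Fads1 and Acaca were called lower in all 26 other settings and Scd1 in 24 of them, without a call under median-of-ratios scaling (adjusted p = 0.066) or without both libraries numbered 1 (0.0573). Acaca shares 67.7% of its transcript with Gm5182, to which 2252 fragments in CTR and 1571 in dKO were assigned, beside 15385 and 11072 for Acaca itself.

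The other 6 fatty acid members were not called, and they did not share a direction. Fasn, fatty acid synthase, had a median of 28.3 FPKM in CTR and 35.1 FPKM in dKO, and its log2 fold change was 0.29 (95% interval −0.00 to 0.58, adjusted p = 0.0883 from limma). Scd2, the second stearoyl-CoA desaturase measured, had the highest level of all members, with a median of 177 FPKM in CTR and 223 FPKM in dKO and a log2 fold change of 0.38 (−0.11 to 0.87, adjusted p = 0.171). Its estimate thus had the opposite sign to that of Scd1, and the difference between the 2 paralogs was not tested. Scd2 shares 25.7% of a transcript with Scd1 as a near-identical copy, which makes the split of fragments between them less certain. Elovl6, an elongase of long-chain fatty acids, was estimated at −0.37 (−0.79 to 0.06) and Fads2, the delta-6 desaturase, at −0.19 (−0.48 to 0.11). Acly and Acss2, which supply acetyl-CoA from citrate and acetate, stood at 0.05 (−0.29 to 0.39) and −0.29 (−0.68 to 0.09). By level per length, Scd2, Scd1, Fads1 and Fads2 formed a group apart, each averaging at least 81.9 FPKM in both groups, followed by Srebf2, Acly and Insig1, with Tm7sf2, Acss2 and Fdps at the low end.

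The members varied together between libraries of the same group. Within CTR, the highest library held 2.68 times the FPKM of the lowest in the median sterol member, against 1.45 times in the median of all genes tested, and the range reached 4.49 times in Acat2. Within dKO the medians were 1.72 and 1.46 times. The SD of log2(FPKM + 1) in CTR was larger than in dKO in 16 of 18 sterol members (88.9%) and in 8 of 9 fatty acid members (88.9%), against 49.1% of all genes. The same libraries set these extremes. CTR replicate 1 was the highest CTR library in 16 of 18 sterol members (88.9%), against 21.2% of all genes, and CTR replicate 5 or 6 was the lowest in 17 of 18 (94.4%), against 33.5%. In dKO, replicate 1 was the lowest library in 18 of 18 sterol members, against 20.3% of all genes. These shares are a description, since the genes of a pathway in 1 library are not independent. Ebp, the sterol isomerase, was an exception in CTR, where replicate 1 was its lowest library at 14.7 FPKM, and Tm7sf2 was marginally higher in CTR replicate 2.

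**Figure D3:**
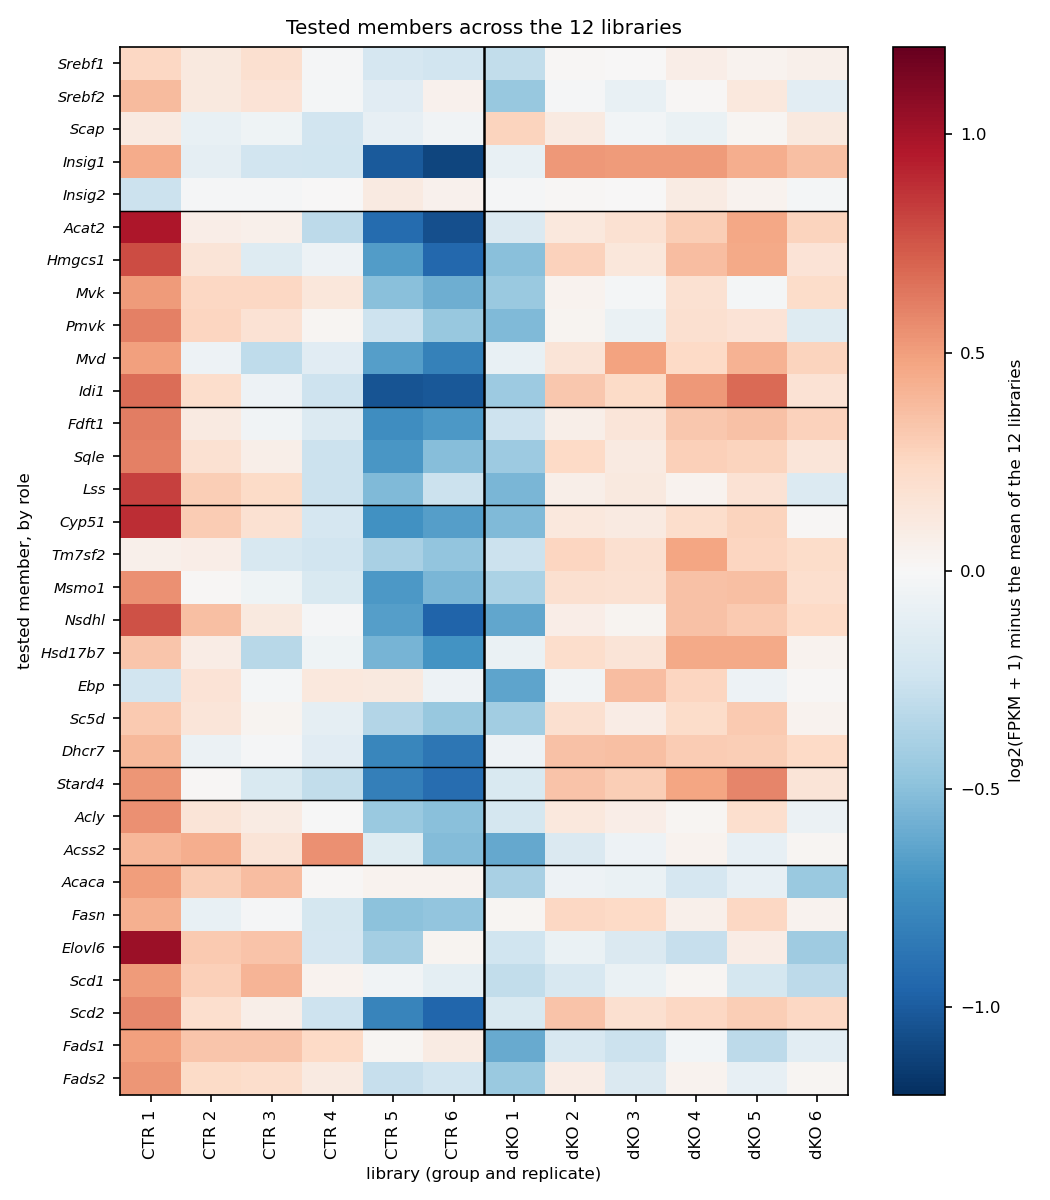
Heat map of the 32 tested members (rows, by role) in the 12 libraries (columns); color gives log2(FPKM + 1) minus the gene's mean over all libraries, red above and blue below it. CTR 1 is red and CTR 5, CTR 6 and dKO 1 are blue through most sterol rows, while dKO 2 to dKO 6 resemble each other.

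As a geometric mean over the 18 tested sterol members, CTR replicates 1 to 6 stood at 20.7, 15.5, 13.8, 12.6, 8.82 and 8.42 FPKM, and dKO replicates 1 to 6 at 10.6, 15.8, 15.8, 17.5, 17.6 and 15.3 FPKM. Hence dKO libraries other than replicate 1 fell within the upper part of the CTR range and none exceeded CTR replicate 1. Over the 9 fatty acid members the CTR libraries stood at 50.5, 40.3, 39.7, 34.7, 27.8 and 27.6 FPKM and the dKO libraries at 26.8, 34.3, 33.1, 33.8, 34.0 and 31.3 FPKM. Within CTR the libraries stood in the same order as for the sterol members, and replicate 1 was again the lowest dKO library. Between the groups the order was another, since CTR replicates 1 to 4 lay above all dKO libraries and dKO replicate 1 was the lowest of all 12. The 6 proliferation markers were also highest in CTR replicate 1, at 25.1 FPKM, but were lowest in CTR at replicate 4 (7.49 FPKM), and in dKO they ran from 6.32 to 9.30 FPKM, with replicate 1 the highest. Growth state, culture density and passage of each library were not given, and their part was not tested.

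**Figure D4:**
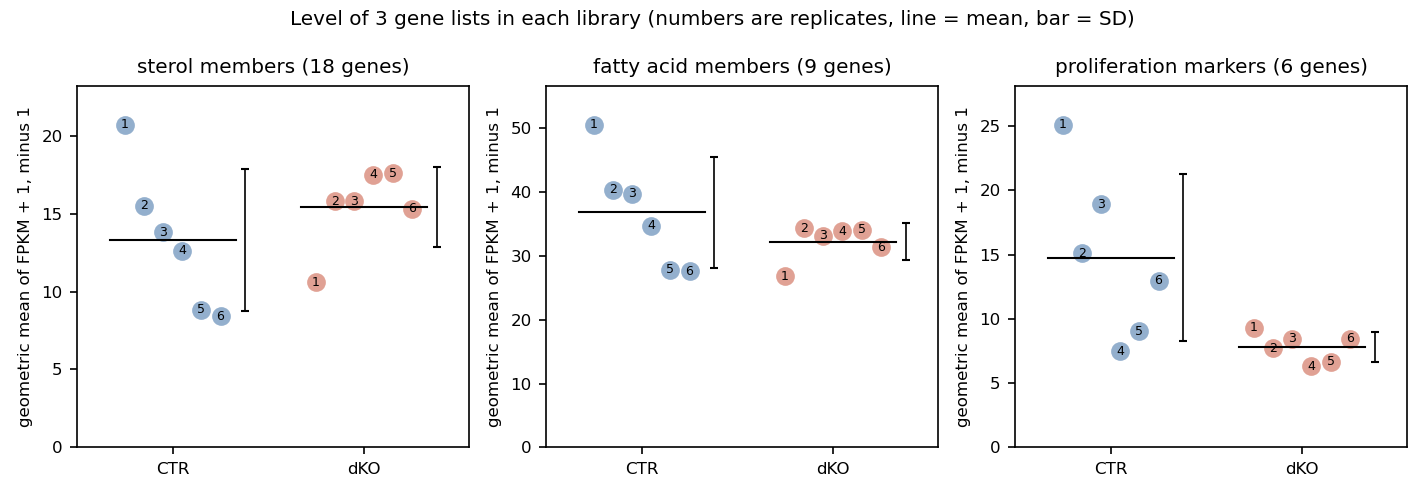
Geometric mean of FPKM + 1, minus 1 (vertical axes, starting at 0), over 18 sterol members, 9 fatty acid members and 6 proliferation markers in each library; numbers in the points are replicates, lines group means and bars SD (n = 6). Sterol members range from 8.42 to 20.7 in CTR and from 10.6 to 17.6 in dKO.

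How many members were called therefore turned on single libraries. Without CTR replicate 1 there were 15 (46.9%), 12 higher (all genes, 19.6%) and 3 lower (all genes, 31.4%), and the median log2 fold change of the sterol members was 0.44 in place of 0.30. Newly called without that library were Acat2, Idi1, Fdft1, Msmo1, Hsd17b7, Fasn and Scd2. Without the replicates numbered 1 of both groups, a choice made after seeing the data, 17 were called, 15 higher (all genes, 19.3%) and 2 lower (all genes, 33.1%). Leaving out CTR replicate 5 or CTR replicate 6 instead left 5 called members, 1 higher (all genes, 18.8% and 19.3%) and 4 lower (all genes, 30% and 31%), and leaving out dKO replicate 2, 3, 4, 5 or 6 left 4 or 5 (12.5% or 15.6%), against 48.7%, 49.5%, 49.6%, 49.7% and 49.6% of all genes. Median-of-ratios scaling called 8 members higher and 2 lower (all genes, 25.5% and 24.6%), and over all genes it moved the split from 2549 higher and 4065 lower to 3176 and 3061. No setting called a sterol member lower, and every setting called Insig1 higher and Fads1 and Acaca lower.

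**Figure D5:**
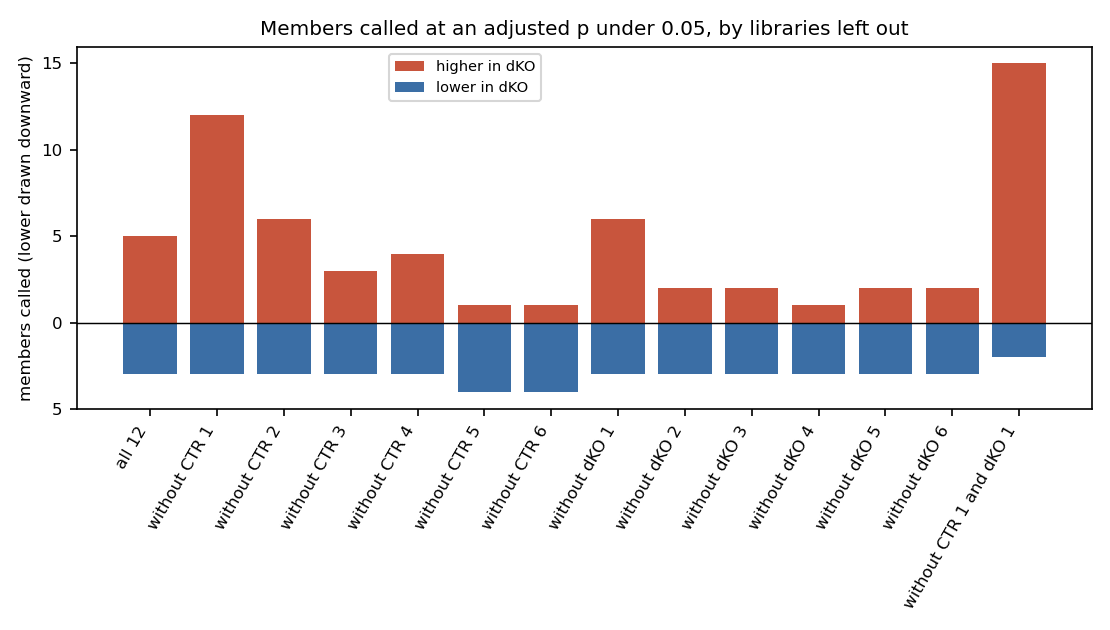
Number of members called by limma at an adjusted p under 0.05 (vertical axis; higher in dKO drawn upward, lower in dKO downward) with all 12 libraries and with the libraries named on the horizontal axis left out. The count of higher members runs from 1 to 15 and that of lower members from 2 to 4.

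Other genes of the pathway were read from a list of 37, of which 36 were tested and 22 (61.1%) were called, 11 higher and 11 lower in dKO (30.6% each), against 53.1% of all genes, 20.4% higher and 32.6% lower. Of the 7 genes that process SREBPs or regulate their escort, 4 were lower and 1 was higher. The site-1 protease gene Mbtps1 fell by 0.42 (standard error 0.10, adjusted p = 0.00326) and the site-2 protease gene Mbtps2 fell by 0.35 (standard error 0.09, adjusted p = 0.00432) on the log2 scale, both by limma. Erlin1, whose product binds cholesterol and restrains SREBP release, ran from 9.73 to 16.3 FPKM in CTR and from 5.81 to 8.75 FPKM in dKO without overlap. Its partner Erlin2 differed by 0.19 in the other direction (adjusted p = 0.0207). Among promoter partners, the NF-Y subunit gene Nfyb fell by 0.52 (adjusted p = 0.000139) and Nfyc fell by 0.23 (adjusted p = 0.00531), and neither overlapped between the groups, whereas Nfya stood at 0.12 and was not called (adjusted p = 0.14).

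Further lipogenic genes went both ways, with 6 of 16 (37.5%) higher and 4 (25%) lower, against 20.4% and 32.6% of all genes. Gpam, the acyltransferase that starts glycerolipid synthesis, was between 18.6 and 34.2 FPKM in CTR and between 11.4 and 17.5 FPKM in dKO. Me1, malic enzyme and a source of NADPH for lipid synthesis, was between 20.4 and 26.0 FPKM in CTR and between 15.1 and 16.9 FPKM in dKO. For both the groups did not overlap, and log2 fold changes were −0.77 and −0.48 (adjusted p = 0.000929 and 0.000107 from limma). Lpin1, a phosphatidate phosphatase, rose by 0.45 (adjusted p = 0.00308) and Aacs, which activates acetoacetate, rose by 0.39 (adjusted p = 0.0122). Of 8 tested genes of sterol sensing, storage and export, 4 were higher and none lower (3 higher without CTR replicate 1), against the same shares. Npc2, which with Npc1 moves cholesterol out of lysosomes, was between 75.4 and 111 FPKM in CTR and between 137 and 180 FPKM in dKO, without overlap, and rose by 0.78 (adjusted p = 4.14e-05 from limma). Npc1 rose by 0.41 (adjusted p = 0.016) and Abca1, the cholesterol exporter, rose by 0.80 (adjusted p = 0.0346, and 0.0748 without CTR replicate 1). Macrophages express several of these genes, and 9 of the 10 macrophage markers were higher in the same dKO libraries, whose part in these differences was not tested.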

How the data were processed

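RNA of 12 MLEC libraries (6 CTR, 6 dKO) had been sequenced and mapped to mm39. The study's methods give Trimmomatic, STAR and the selection of uniquely aligned reads, while the submitters' processing notes list Bowtie2 2.2.3, HISAT2 2.1.0, TopHat2 and DESeq2 without roles. The authors deposited FPKM values per gene and library. The counting program, annotation and use of strand are not given in the sources used here. Columns were matched to groups through the labels. Those of dKO are named after tamoxifen, which both groups received. The number of other per-sample columns was 0. Of 28689 identifiers, 27706 matched GENCODE, which gave symbols and GRCm39 positions.

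The fit covered the 12467 genes that reached 1 FPKM in 6 or more libraries. Their values were fitted as log2(FPKM + 1) with limma 3.58.1 in R 4.3.3 (lmFit, eBayes with trend, no covariates, Benjamini-Hochberg), and single values with an exact two-sided permutation test over 924 divisions. The steps were tested on simulated data. Whole fragments (at least 1 behind each value above 0) were recovered from the FPKM for all 28689 genes within a tolerance of 0.01. The annotated length was taken where it gave whole fragments (9161 genes). Otherwise the shortest length that gave them was taken, which is not unique for genes with few fragments. The fragments served for depth (between 113 and 26620 for a tested member in a library) and for an alternative fit. Near-identical copies were matches of at least 95% identity over 150 bases. Exons of 13 members overlap a gene on the other strand. All 33 members are named, with full values for the regulators and for the called members. Members and lists were chosen with earlier results of these data known. The alternatives are in the closing section.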

Additional observations from a re-analysis of the deposited data

Results flagged for a closer look

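A member was listed when its highest or lowest library stood apart from the other 5 of its group by a gap, relative to the range of the group, beyond Dixon's 95% critical value. This was the case in 7 of 64 groups of 6 libraries, where chance alone gives about 1 in 20 (3.2), although the members of a library are not independent. In 6 of the 7 the library was dKO replicate 1, which was low. It stood at 16.5 FPKM for Srebf1 (other dKO libraries 20.6 to 21.8), 36.7 for Insig1 (50.2 to 56.4), 11.03 for Sqle (16.5 to 18.9), 15.6 for Msmo1 (23.6 to 26.7), 5.88 for Dhcr7 (7.48 to 8.23) and 165 for Scd2 (214 to 238). The seventh was Insig2 in CTR replicate 1, at 8.66 FPKM (other CTR libraries 10.5 to 11.5). The dKO replicate 1 library also held the fewest fragments, 15523054, and the lowest array weight, 0.393. Without it 9 members were called, 6 higher and 3 lower (all genes, 19.9% and 34%), in place of 8.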

How the results depend on the processing

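Of the 8 called members, 5 were higher and 3 lower in dKO. Under 26 alternatives Insig1, Fads1 and Acaca kept direction and call, and the other 5 called members kept direction, Tm7sf2 in the 25 that tested it (not under the filter of 5 FPKM). Leaving out each library gave between 4 and 15 called members, between 1 and 12 higher and between 3 and 4 lower, against between 47% and 54.9% of all genes called, with a median log2 fold change between 0.06 and 0.24 over the members, between 0.17 and 0.44 over the sterol members and between −0.40 and −0.20 over the fatty acid members. Without any filter 4 members were called (1 higher), against 26.3% of all genes, and after rescaling to TPM 5 (2 higher), against 54.9%; without a filter more genes were tested. Median-of-ratios scaling gave 8 higher. Without both replicates numbered 1, chosen after seeing the data, 17 were called (15 higher), and the medians were 0.34 over the members, 0.53 over the sterol members and −0.15 over the fatty acid members. With the replicate block 5 were called (2 higher), against 55.8% of all genes. Same-numbered libraries did not all deviate together (correlations between −0.1083 and 0.5650), and only numbers 1 and 4 correlated best with their own number, so the numbers were not taken as pairs. The other pathway genes called stayed between 17 and 25, beside 22. In a window from 500 bases before to 100 after the start, 80.8% of members had a GC box, against 73.6% of genes tested. At least 2 boxes were present there in 57.7%, against 50.4%. In the window from 250 bases before to 50 after, at least 2 were present in 42.3%, against 40.1%.

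Signs changed 29 times, in 9 members that were not called, with adjusted p of at least 0.417. Leaving out each library moved Srebf1 (−0.04) between −0.09 and 0.02, Mvk (−0.02) between −0.14 and 0.08, Lss (−0.10) between −0.22 and 0.05, Cyp51 (0.07) between −0.07 and 0.25, Nsdhl (0.13) between −0.04 and 0.30, Ebp (−0.03) between −0.11 and 0.09 and Acly (0.05) between −0.05 and 0.16. Insig2 (0.04) lay between −0.01 and 0.07. Median-of-ratios scaling gave 0.05 for Srebf1, 0.07 for Mvk and 0.05 for Ebp, upper-quartile scaling 0.01 and quantile scaling 0.02 for Mvk, array weights 0.00 for Ebp, and TPM −0.00 for Insig2. Without both replicates numbered 1, Srebf1 was 0.07, Insig2 −0.00, Mvk 0.17, Pmvk 0.08, Lss 0.15 and Ebp 0.04. The cause was not tested. At least 113 fragments lay behind the value of each tested member in each library, and these counts bound the precision of single values only.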
